A study of Rattus norvegicus with 6 samples.

Results

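The genes described here are 46 rat genes of the G2 phase and mitosis. They were measured in the liver after dosing with nitrilotriacetic acid (NTA) or with vehicle. They form a list of gene symbols that was chosen with earlier results of these data known. The list holds cyclins and CDK1, mitotic kinases, the spindle checkpoint, mitotic ubiquitination, kinesins, kinetochore proteins, the spindle midzone and cytokinesis. Of the 46 genes, 36 had at least 1 probe on the array, out of 15284 named genes with a probe, and these 36 genes were read by 63 probes. No probe matched Cdc25c, Bub1b, Kif4a, Cenpe, Cenpk, Cenpw, Spc24, Top2a, Anln or Ect2. A total of 31 of the 46 had signal well above background throughout the arrays of the NTA group, the vehicle group or both, and are called measured below. A gene with several such probes is represented by the brightest. For 28 of the 31 this probe was above background on all 6 arrays, whereas those of Nuf2, Tpx2 and Racgap1 passed only through the NTA arrays, although another Racgap1 probe was above background on all 6.

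The animals were 3 male Sprague-Dawley rats given NTA as its trisodium monohydrate salt at 1000 mg/kg/day, set against 3 male Sprague-Dawley rats given vehicle alone. NTA, a synthetic chelating agent, forms soluble complexes with divalent and trivalent metals. All rats were bought at 5 weeks of age, and liver total RNA of each rat was labelled with Cy3 and hybridised to its own one-colour Agilent array. The labels disagree on the vehicle: the sample characteristics name purified water, but the treatment protocol names corn oil. They also disagree on the length of dosing, with 28 days stated for the series as a whole but 9 weeks stated for the treatment.

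Between 62.4% and 64.5% of the 61657 non-control probes were well above background on an array. The NTA arrays all lay on 1 slide, vehicle rats 1 and 2 shared another slide, and vehicle rat 3 lay on a slide of its own that was scanned on another day. The slide and the treatment therefore cannot be told apart. Vehicle rat 3 also had a median local background of 40, against 54 to 61 on the other arrays. Hepatocyte genes were well above background on every array for all 10 listed markers, which include Alb and Apoa1, as the tissue label says. In whole-liver RNA, more cells in division and more RNA per dividing cell cannot be told apart, and neither can the cell types that divide.

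Most hepatocytes of an adult liver rest outside the cell cycle, and divisions become frequent mainly in growth and after loss of tissue. Entry into mitosis is driven by CDK1 bound to cyclins A and B, and exit by the anaphase-promoting complex (APC/C), a ubiquitin ligase that marks cyclin B and securin for destruction. The genes of this machinery are transcribed together late in the cycle. In human and mouse cells the DREAM complex keeps them off in resting cells, and B-MYB and FOXM1, with the same MuvB core, switch them on in dividing cells. These complexes act through a promoter element called the cell cycle genes homology region (CHR), usually near a CCAAT box bound by NF-Y.

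The promoters of 40 of the 46 genes were in a RefSeq table of the assembly GRCr8, which gives 250 bases before and 50 bases after each annotated start. CHR cores TTTGAA or TTCGAA, read on either strand, were found in 28 of the 40 promoters (70%), against 3731 of the 19005 promoters of protein-coding genes in the table (19.6%). CCAAT on either strand was found in 29 of the 40 (72.5%), against 39.8% of the 19005, and both kinds of motif in 22 (55%), against 8.22%. Each motif was searched for separately, and matches were not checked for shared letters. A match here describes letters only, and the number of arrays, 3 per group, limits the precision of all values that follow. Below are the promoters of the 4 genes with the smallest limma p among those with a CHR core, shown as examples of where these letters lie. Each runs 5′ to 3′ along its gene, and capitals mark TTTGAA or its reverse complement TTCAAA, and CCAAT or its reverse complement ATTGG.
Kif22 (chr1:191080829-191081128, minus strand, GRCr8): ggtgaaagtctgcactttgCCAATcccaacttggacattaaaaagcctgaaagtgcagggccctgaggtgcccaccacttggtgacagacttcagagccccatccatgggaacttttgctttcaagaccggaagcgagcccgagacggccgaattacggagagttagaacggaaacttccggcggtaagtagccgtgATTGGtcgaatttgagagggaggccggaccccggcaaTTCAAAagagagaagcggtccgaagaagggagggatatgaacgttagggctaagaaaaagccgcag
Pttg1 (chr10:28406277-28406576, minus strand, GRCr8): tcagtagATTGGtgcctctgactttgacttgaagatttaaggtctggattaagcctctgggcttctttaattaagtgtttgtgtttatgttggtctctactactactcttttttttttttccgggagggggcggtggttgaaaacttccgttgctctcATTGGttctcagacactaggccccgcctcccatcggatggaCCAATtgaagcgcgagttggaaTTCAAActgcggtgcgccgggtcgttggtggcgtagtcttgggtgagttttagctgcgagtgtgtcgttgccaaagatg
Kif23 (chr8:71320535-71320834, minus strand, GRCr8): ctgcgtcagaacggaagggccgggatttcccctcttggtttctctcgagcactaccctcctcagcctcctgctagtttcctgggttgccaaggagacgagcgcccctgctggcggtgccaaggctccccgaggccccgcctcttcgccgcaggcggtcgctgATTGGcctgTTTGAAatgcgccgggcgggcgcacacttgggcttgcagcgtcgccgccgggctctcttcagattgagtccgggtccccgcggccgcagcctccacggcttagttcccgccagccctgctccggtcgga
Cdk1 (chr20:19265043-19265342, plus strand, GRCr8): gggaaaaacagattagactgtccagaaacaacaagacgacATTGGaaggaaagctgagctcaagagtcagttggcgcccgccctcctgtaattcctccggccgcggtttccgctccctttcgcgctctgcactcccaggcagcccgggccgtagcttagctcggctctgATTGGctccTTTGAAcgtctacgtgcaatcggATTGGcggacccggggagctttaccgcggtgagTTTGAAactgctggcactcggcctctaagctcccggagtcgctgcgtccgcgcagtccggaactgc

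In Kif22 the core lay 16 bases before the annotated start, in Pttg1 29 bases and in Kif23 79 bases before it. Cdk1 held the core at 72 bases and again at 16 bases before the start, with 3 CCAAT motifs, at 210, 81 and 49 bases. A CCAAT motif stood upstream of the core in all 4 promoters. In the liver data, which are given next, the median log2 difference of NTA minus vehicle was 0.81 over the 18 measured genes with a core, 0.77 over the 8 without one and 1.16 over the 5 whose promoter was not in the table. Those 5 include Tpx2 and Racgap1, and the 18 include Nuf2. The probes used for these genes passed the filter only through the NTA arrays, so their higher NTA signal follows in part from the filter. No difference between these medians was tested.

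All 31 measured genes had a higher mean signal in NTA livers than in vehicle livers, by 0.03 to 1.20 on the log2 scale, with a median of 0.84. Over all 30353 features tested the median was −0.03, and 43.9% lay above 0. In limma 0 of the 31 passed an adjusted p of 0.05 over all features, with adjusted p from 0.377 to 0.981, and 9 features in all passed (0.0297%). At an unadjusted p under 0.05, 19 of the 31 were higher with NTA and 0 were lower, against 3.66% of all features higher. In 15 of the 31 every NTA rat lay above every vehicle rat, against 5.57% of all features, and in 0 did every NTA rat lie below, against 8.03% of all features. Since the probes of 3 of the 31 passed the filter only through the NTA arrays, the same counts were made over the 28 genes whose probe was above background on all 6 arrays. There 28 of 28 lay above 0 with a median of 0.84, 17 had an unadjusted p under 0.05 (3.18% of features on all 6 arrays, in that direction) and 13 did not overlap (5.25%). Probes were also first limited to those on all 6 arrays, which brings in Racgap1 by its other probe. Then 19 of 29 genes had an unadjusted p under 0.05, against 3.33% of all features so limited, in that direction. In the same setting 14 did not overlap, against 5.25%. A 1.5-fold difference or more was seen in 23 of the 31, against 2.88% of all features.

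**Figure D1:**
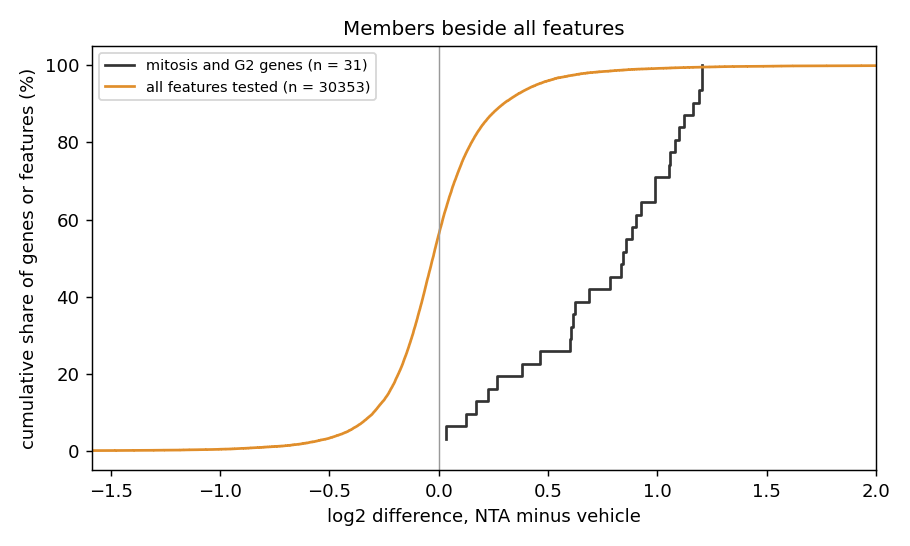
Cumulative share (%) of genes or features, on the vertical axis, with a log2 difference of NTA minus vehicle at or below the value on the horizontal axis, for the 31 measured mitosis and G2 genes and for all 30353 features. The curve of the mitosis and G2 genes starts at 0.03 and ends at 1.20, whereas the curve of all features has its median at −0.03.

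The size of the shift differed between ways of computing the signal. Normexp background correction also starts from the median spot signal and adds an offset. With it the median of the 31 genes was 0.33, against −0.05 over all features. There 15 had an unadjusted p under 0.05, against 3.47% of all features higher, and 11 did not overlap, against 5.13%. Of the 31 genes 27 lay above 0, against 11133 of the 30353 features, and Cenpa, Cks2, Foxm1 and Mybl2 lay below it. With the scan day as a block, which sets the NTA rats against vehicle rats 1 and 2 of the same day, the median was 0.63. In that setting 10 genes had an unadjusted p under 0.05, against 4.22% of all features higher. The same count was 10 without vehicle rat 2 and 11 without NTA rat 2, against 3.18% and 3.10% of all features.

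The shift was not even across the rats. After subtracting each gene's mean over the 6 arrays, the median over the 31 genes was 0.06, 0.56 and 0.47 in NTA rats 1 to 3, against 0.05, −0.49 and −0.65 in vehicle rats 1 to 3. Over all features the same median stayed between −0.03 and 0.04 on every array. NTA rat 2 held the highest value of 21 genes and NTA rat 3 of 8, and vehicle rat 3 held the lowest of 21 and vehicle rat 2 of 8. NTA rat 1 and vehicle rat 1 therefore lay together in the middle, with a median difference of −0.03 between them (NTA 1 minus vehicle 1), and vehicle rat 1 exceeded NTA rat 1 in 16 of the 31 genes.

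Vehicle rat 1 stood above both other vehicle rats in 28 of the 31 genes (90.3%), against 30.2% of all features, by a median of 0.60 over their mean. Among the NTA rats, rat 1 was the lowest in 27 of 31, by a median of 0.42 below the mean of the other NTA rats. Of the 16 genes whose groups overlapped, 9 overlapped only through vehicle rat 1. Without vehicle rat 1, 24 of the 31 genes did not overlap, against 10.73% of all features, and 23 had an unadjusted p under 0.05, against 4.11%. Without NTA rat 1, 24 did not overlap, against 9.03% of all features. Fewer arrays make a lack of overlap more frequent in general. The median of the NTA mean over a single vehicle rat was 0.31 for vehicle rat 1, 0.93 for vehicle rat 2 and 1.09 for vehicle rat 3.

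**Figure D2:**
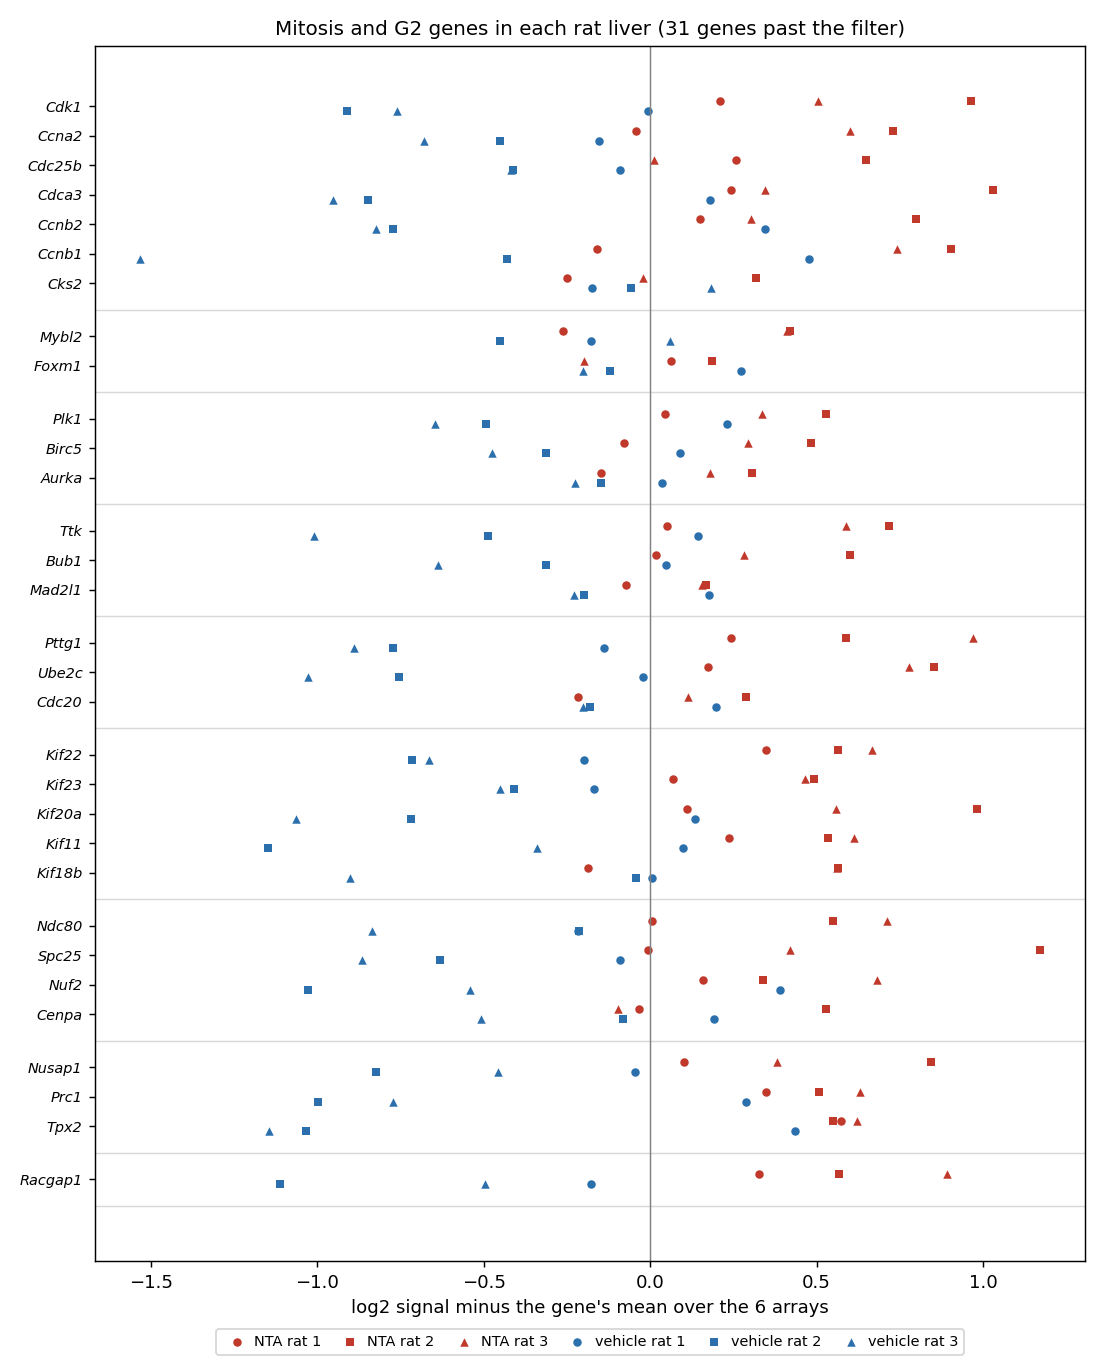
Log2 signal of the 31 measured mitosis and G2 genes in each liver, on the horizontal axis, after subtracting the gene's mean over the 6 arrays, with genes grouped by role from top to bottom and 1 symbol per rat. NTA rats 2 and 3 lie on the right and vehicle rats 2 and 3 on the left for most genes, whereas NTA rat 1 and vehicle rat 1 lie between them.

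The cyclins and the regulators of CDK1 come first, since they set off mitosis. In the following, a value is the log2 of a gene's signal over its array's 75th percentile, a difference is NTA minus vehicle, and differences between genes in their level carry no meaning because each is read by its own probe. Of the 8 genes of this role, 7 were measured. At an unadjusted p under 0.05, 5 were higher, against 3.66% of all features. Of those, 4 had no overlap, against 5.57% of all features. Cdk1, the kinase that drives entry into mitosis, was at −0.45, 0.30 and −0.16 in NTA rats 1 to 3, against −0.67, −1.57 and −1.42 in vehicle rats 1 to 3. Its difference was 1.12 (SE 0.29), or 2.17-fold (limma, adjusted p = 0.516), and vehicle rat 1 was the vehicle animal nearest to the NTA rats. Ccna2 encodes cyclin A2, which partners CDK2 in S phase and CDK1 in G2, and it was at −2.27, −1.50 and −1.63 in NTA rats 1 to 3, against −2.39, −2.68 and −2.91 in vehicle rats 1 to 3. Its 3 measured probes gave differences between 0.77 and 0.86, and its groups did not overlap, although NTA rat 1 and vehicle rat 1 nearly met.

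Cdc25b encodes the phosphatase that removes inhibitory phosphates from CDK1, and its values were −0.36, 0.03 and −0.61 in NTA rats 1 to 3, against −0.71, −1.03 and −1.04 in vehicle rats 1 to 3. Its difference was 0.61 (SE 0.19), and its 3 probes ranged from 0.35 to 0.81. NTA rat 3 was the lowest of the NTA rats here, in contrast to most of the list. Cdca3, an F-box-like protein that in human cells takes part in the destruction of the CDK1 inhibitor WEE1, had −1.57, −0.79 and −1.47 in NTA rats 1 to 3, against −1.63, −2.66 and −2.77 in vehicle rats 1 to 3. This was a difference of 1.08 (SE 0.35), with vehicle rat 1 just below NTA rat 1.

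The B cyclins, the mitotic partners of CDK1, overlapped between the groups. Ccnb2 had −3.46, −2.81 and −3.31 in NTA rats 1 to 3, against −3.27, −4.38 and −4.44 in vehicle rats 1 to 3, with vehicle rat 1 above NTA rats 1 and 3 and a difference of 0.83 (SE 0.35). Ccnb1 had the widest spread among the vehicle rats of this role, with −3.70, −2.64 and −2.80 in NTA rats 1 to 3, against −3.07, −3.97 and −5.07 in vehicle rats 1 to 3. Its difference of 0.99 had an SE of 0.53 (limma, unadjusted p = 0.11), so a 1.99-fold difference in means did not exceed what the spread between rats allows the test to call. Cks2, a small CDK-binding subunit, was at 0.66, 1.23 and 0.89 in NTA rats 1 to 3, against 0.74, 0.85 and 1.09 in vehicle rats 1 to 3. Its vehicle values lay within the range of its NTA values, the difference was 0.03 (SE 0.18), and the sign turned under normexp and without NTA rat 2 or vehicle rat 1.

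The transcription factors of the program gave the lowest median difference of any role, 0.21, and in both the groups overlapped. Foxm1, the forkhead factor of late cell cycle genes, was at −1.72, −1.60 and −1.98 in NTA rats 1 to 3, against −1.51, −1.90 and −1.98 in vehicle rats 1 to 3. Its difference was 0.03 (SE 0.17), vehicle rat 1 was the highest of all 6 rats, and the sign turned under normexp, with the scan day as a block, and without NTA rat 2 or vehicle rat 2 or 3. Mybl2, which encodes B-MYB, was at −4.85, −4.16 and −4.18 in NTA rats 1 to 3, against −4.76, −5.04 and −4.52 in vehicle rats 1 to 3, a difference of 0.38 (SE 0.23) whose sign turned under normexp. The RNA of these factors says nothing of their activity, which is largely set by phosphorylation.

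Of the mitotic kinases and the chromosomal passenger complex, 3 of 5 genes were measured. Of these, 0 had an unadjusted p under 0.05 or were free of overlap, against 3.66% and 5.57% of all features, higher with NTA. Plk1 encodes the polo-like kinase that acts from mitotic entry to cytokinesis, and it was at −1.19, −0.71 and −0.90 in NTA rats 1 to 3, against −1.003, −1.73 and −1.88 in vehicle rats 1 to 3. Vehicle rat 1 lay between NTA rats 1 and 3, and the difference was 0.61 (SE 0.26, limma, unadjusted p = 0.052). Birc5 (survivin), a subunit of the passenger complex, was at −1.28, −0.72 and −0.91 in NTA rats 1 to 3, against −1.11, −1.52 and −1.68 in vehicle rats 1 to 3, a difference of 0.46 (SE 0.21). Aurka, the kinase of spindle poles, differed by 0.22 (SE 0.15) and its values were −0.88, −0.42 and −0.55 in NTA rats 1 to 3, against −0.69, −0.88 and −0.96 in vehicle rats 1 to 3. Aurkb, the kinase of the passenger complex, was above background only on 1 NTA array, and its subunit Cdca8 (borealin) on none, so neither is given a difference.

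The spindle checkpoint delays anaphase until all chromosomes are attached. Ttk, its kinase MPS1, was at −3.02, −2.36 and −2.49 in NTA rats 1 to 3, against −2.93, −3.56 and −4.08 in vehicle rats 1 to 3, and Bub1, a kinase recruited to kinetochores, at −2.13, −1.55 and −1.87 in NTA rats 1 to 3, against −2.10, −2.46 and −2.79 in vehicle rats 1 to 3. Both had an unadjusted p under 0.05, with differences of 0.90 (SE 0.32) for Ttk and 0.60 (SE 0.22) for Bub1. In both the overlap came from vehicle rat 1 alone, which lay just above NTA rat 1. Mad2l1 encodes MAD2, the inhibitor of CDC20, and it was at −2.26, −2.02 and −2.04 in NTA rats 1 to 3, against −2.02, −2.39 and −2.42 in vehicle rats 1 to 3, a difference of 0.17 (SE 0.15) in which vehicle rat 1 was level with NTA rats 2 and 3.

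The ubiquitin arm of mitotic exit held the largest differences of the list, and Cdc20 among the smallest. Pttg1 encodes securin, the protein that holds separase inactive until anaphase, and it was at 0.11, 0.46 and 0.84 in NTA rats 1 to 3, against −0.27, −0.90 and −1.02 in vehicle rats 1 to 3. Its difference was 1.20 (SE 0.26), or 2.30-fold (limma, adjusted p = 0.479), and the groups did not overlap. Ube2c, the ubiquitin-conjugating enzyme that works with the APC/C, was at −2.85, −2.18 and −2.25 in NTA rats 1 to 3, against −3.05, −3.78 and −4.05 in vehicle rats 1 to 3. Its difference was 1.20 (SE 0.30), or 2.30-fold (limma, adjusted p = 0.516), again without overlap. Cdc20, the activator of the APC/C and target of the checkpoint, was at −1.18, −0.68 and −0.85 in NTA rats 1 to 3, against −0.77, −1.14 and −1.17 in vehicle rats 1 to 3, a difference of 0.12 (SE 0.18) with NTA rat 1 the lowest of the 6 rats and vehicle rat 1 next to the highest.

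Kinesins move or anchor chromosomes and microtubules, and 5 of the 7 on the list were measured. Kif22, a chromosome-bound kinesin that pushes chromosome arms towards the spindle equator, was at −1.24, −1.02 and −0.92 in NTA rats 1 to 3, against −1.79, −2.31 and −2.25 in vehicle rats 1 to 3. It had the smallest p of the list, with a difference of 1.05 (SE 0.17), or 2.08-fold (limma, adjusted p = 0.377), and its other measured probe gave 1.41. Kif23, the motor of the centralspindlin complex in the spindle midzone, was at −3.23, −2.81 and −2.84 in NTA rats 1 to 3, against −3.47, −3.71 and −3.75 in vehicle rats 1 to 3. Its difference was 0.69 (SE 0.16, adjusted p = 0.482), and neither gene overlapped between the groups. In Kif23, NTA rat 1 was nearer to vehicle rat 1 than to the other NTA rats.

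Kif11, which slides spindle poles apart, was at −2.99, −2.69 and −2.61 in NTA rats 1 to 3, against −3.13, −4.37 and −3.56 in vehicle rats 1 to 3, a difference of 0.92 (SE 0.31) without overlap. Kif20a, a midzone kinesin, was at −2.69, −1.82 and −2.24 in NTA rats 1 to 3, against −2.66, −3.52 and −3.86 in vehicle rats 1 to 3, which made its mean 2.14-fold higher with NTA. Its groups met at NTA rat 1 and vehicle rat 1, which were almost level. Kif18b, a kinesin that shortens astral microtubules, was at −3.57, −2.82 and −2.82 in NTA rats 1 to 3, against −3.38, −3.42 and −4.28 in vehicle rats 1 to 3, a difference of 0.63 (SE 0.32) with NTA rat 1 below vehicle rats 1 and 2. Kif2c, a microtubule depolymerase of the centromere, was not past the filter by any of its probes: its brightest was above background only on the array of vehicle rat 1, and another only on 1 NTA array.

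Ndc80, Nuf2, Spc24 and Spc25 form the NDC80 complex, which ties kinetochores to microtubules, and 3 of these 4 genes were measured. Ndc80 was at −3.42, −2.87 and −2.71 in NTA rats 1 to 3, against −3.64, −3.63 and −4.25 in vehicle rats 1 to 3, a difference of 0.84 (SE 0.25) without overlap. Spc25 was at −3.03, −1.85 and −2.60 in NTA rats 1 to 3, against −3.11, −3.65 and −3.89 in vehicle rats 1 to 3, a difference of 1.06 (SE 0.34) in which NTA rat 1 and vehicle rat 1 were separated by less than the gaps among the NTA rats. Nuf2 was above background on all NTA arrays and 2 vehicle arrays, at −4.02, −3.84 and −3.50 in NTA rats 1 to 3, against −3.79, −5.21 and −4.72 in vehicle rats 1 to 3, a difference of 0.79 (SE 0.36) with overlap. Cenpa, the histone H3 variant that marks centromeres, was at −3.96, −3.39 and −4.02 in NTA rats 1 to 3, against −3.73, −4.00 and −4.43 in vehicle rats 1 to 3, a difference of 0.27 (SE 0.24), and its sign turned under normexp. Cenpf, a kinetochore protein of late G2, was above background on no array.

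Spindle and midzone genes were free of overlap in 3 of the 3 measured, against 5.57% of all features. Of these, Tpx2 passed the filter only through the NTA arrays, where a higher NTA signal follows from the filter. Nusap1, which bundles microtubules near chromosomes, was at −2.06, −1.32 and −1.79 in NTA rats 1 to 3, against −2.21, −2.99 and −2.62 in vehicle rats 1 to 3, a difference of 0.88 (SE 0.26). Prc1, the bundling protein of the central spindle, was at −2.94, −2.78 and −2.65 in NTA rats 1 to 3, against −3.00, −4.28 and −4.06 in vehicle rats 1 to 3, a difference of 0.99 (SE 0.33). Tpx2, an activator of Aurora A on the spindle, was above background on all NTA arrays and 1 vehicle array, at −4.08, −4.10 and −4.03 in NTA rats 1 to 3, against −4.22, −5.69 and −5.80 in vehicle rats 1 to 3. In Prc1 and Tpx2 vehicle rat 1 lay just below the lowest NTA rat while the other vehicle rats lay more than 1 log2 unit below it. The Tpx2 difference was 1.16 (SE 0.41), and it was 0.09 under normexp. Hmmr, a spindle-associated hyaluronan receptor, was above background on no array.

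Racgap1, the partner of Kif23 in centralspindlin and the only measured gene of cytokinesis, had a brightest probe above background on all NTA arrays and 2 vehicle arrays. The values of that probe were −3.60, −3.36 and −3.03 in NTA rats 1 to 3, against −4.10, −5.04 and −4.42 in vehicle rats 1 to 3, a difference of 1.19 (SE 0.27, limma, adjusted p = 0.482) without overlap. Another Racgap1 probe, above background on all 6 arrays, gave 0.83. Across the whole list, 11 genes had several probes past the filter, and 0 of these 11 had probes of opposite sign or more than 1 log2 unit apart. In Kif11, Spc25, Ttk and Racgap1 some of those probes passed only through the NTA arrays, where a higher NTA signal follows from the filter.

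**Figure D3:**
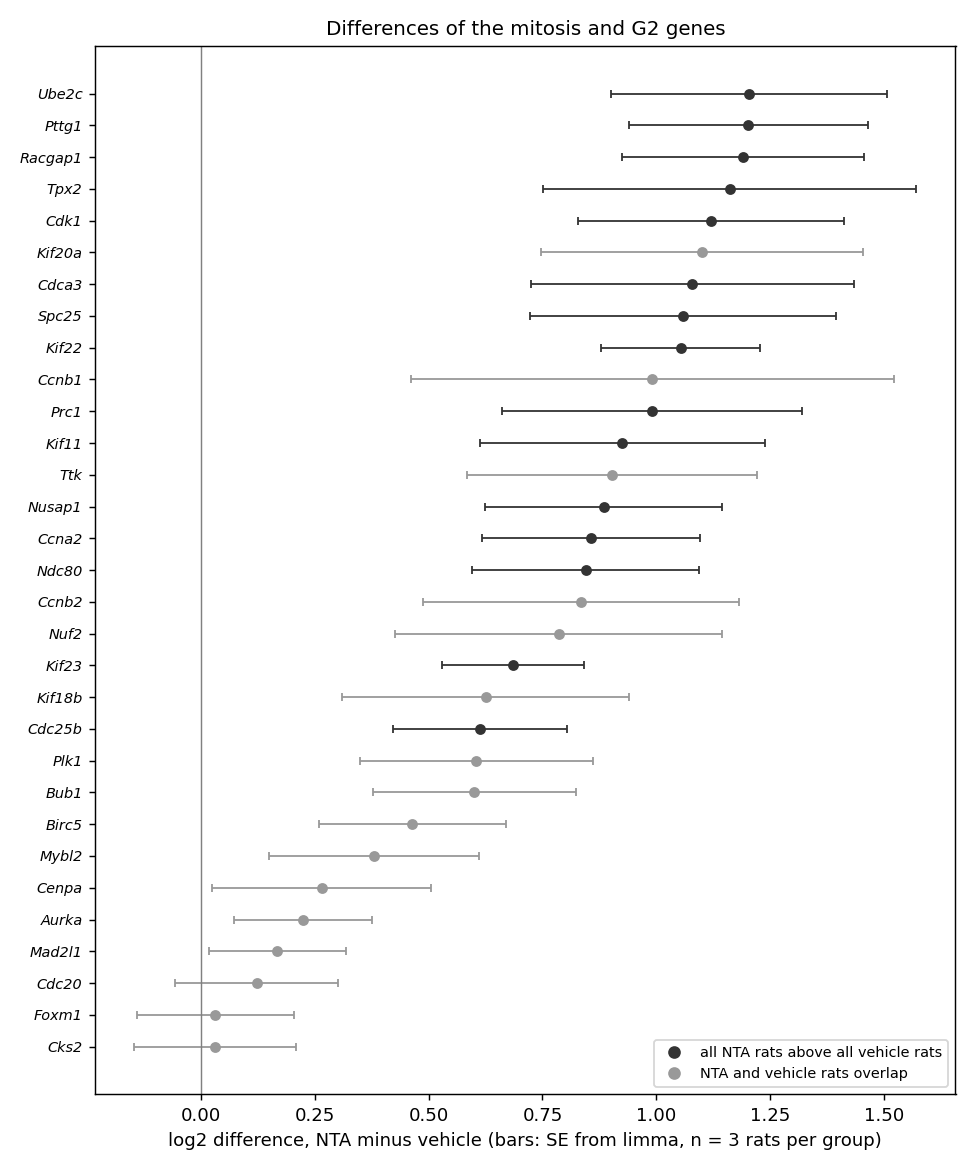
Log2 difference of NTA minus vehicle for the 31 measured mitosis and G2 genes, on the horizontal axis, sorted from the largest at the top, with bars of 1 SE from limma (n = 3 rats per group). Dark points are the 15 genes whose NTA rats all lie above the vehicle rats and grey points are the 16 that overlap, with Ube2c at 1.20 on top and Cks2 and Foxm1 at 0.03 at the bottom.

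Other genes of the cell cycle place these values within the cycle, and 0 genes of any of the following lists passed the adjusted threshold in limma. Of 66 further genes of G2 and mitosis, 34 were measured, 26 lay above 0, 13 were higher and 1 lower at an unadjusted p under 0.05, against 3.66% and 3.91% of all features, and the median difference was 0.54. Espl1, the separase that securin holds, differed by 1.16 (SE 0.22), Spag5, a spindle protein, by 0.84 (SE 0.19), and Dsn1, a kinetochore subunit, by 1.15 (SE 0.26). The 1 lower gene was Iqgap3 at −0.38 (SE 0.14), named here after its value was seen. Of this list 25 genes were above background on all 6 arrays, and of these 17 lay above 0 with a median of 0.23.

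Genes of DNA replication and S phase also lay mostly above 0: of 40, 34 were measured, 27 lay above 0, and the median difference was 0.16. At an unadjusted p under 0.05, 8 were higher and 0 lower, against 3.66% and 3.91% of all features. Over the 29 above background on all 6 arrays, 23 lay above 0 with a median of 0.23, level with the 25 further G2 and mitosis genes counted in that way. Those with the smallest p were Chaf1b, a histone chaperone subunit, at 0.82, the helicase subunit Mcm3 at 0.62 and the replication factor Gins4 at 0.50. Larger differences at a larger p were those of Rrm2, a ribonucleotide reductase subunit, at 1.30 and Mcm6, a helicase subunit, at 0.73, named after their values were seen. No difference between the lists was tested. The deviation medians of the S phase genes were 0.06, 0.21 and 0.09 in NTA rats 1 to 3, against −0.04, −0.09 and −0.07 in vehicle rats 1 to 3, so vehicle rat 1 did not stand apart in them as it did in the mitosis genes.

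The G1 machinery, the APC/C and the inhibitors of the cycle gave medians close to 0. The 8 genes of the G1 list, cyclins and kinases with the phosphatase Cdc25a and the transcription factor Myc, had a median of 0.02. In it 0 were higher or lower at an unadjusted p under 0.05, against 3.66% and 3.91% of all features. Ccnd1, cyclin D1, was at −0.32 and Ccnd2 at −0.23. The 14 genes of the APC/C list, which are subunits of the complex with its coactivator Fzr1 and the ubiquitin-conjugating enzyme Ube2s, had a median of 0.03. Differences of 1.20 for Pttg1 and Ube2c, which act with that complex, stand beside it. Of the 14 genes 0 were higher or lower at an unadjusted p under 0.05, against the same shares. In 1 of them, Anapc10 at 0.24, every NTA rat lay above every vehicle rat, against 5.57% of all features. Of 20 CDK inhibitors and subunits of DREAM and RB repressors, 15 were measured with a median of 0.01. At an unadjusted p under 0.05, 0 were higher and 1 lower, against 3.66% and 3.91% of all features. The lower gene was the CDK inhibitor Cdkn1c at −0.47, with Rbl2, a pocket protein of DREAM, at 0.21.

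**Figure D4:**
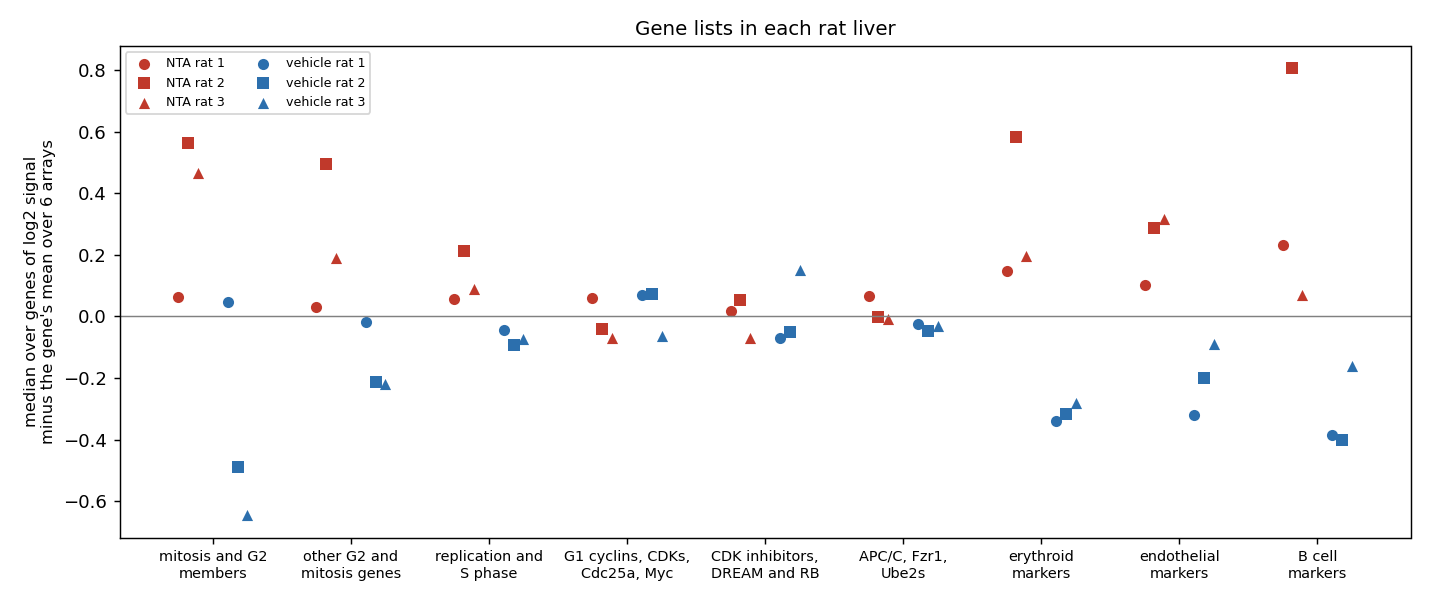
Median over the measured genes of a list of the log2 signal minus the gene's mean over the 6 arrays, on the vertical axis, with 1 symbol per rat and lists along the horizontal axis. The mitosis and G2 genes run from −0.65 in vehicle rat 3 to 0.56 in NTA rat 2, whereas the G1 list stays between −0.07 and 0.07 and the APC/C list between −0.05 and 0.06.

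Several marker lists of liver cell types differed between the groups in their summed signal. Summed hepatocyte marker signal, in units of the array's 75th percentile, was 5996 to 6405 in NTA livers, against 6848 to 7169 in vehicle livers, and 1 of 10 markers lay above 0. Summed endothelial signal was 85.0 to 92.6 in NTA livers, against 65.2 to 78.1 in vehicle livers, and 8 of the 8 with a probe lay above 0, while Stab2 and Clec4g had no probe. Summed B and plasma cell signal was 1.29 to 1.72 in NTA livers, against 0.849 to 1.03 in vehicle livers, with 5 of 5 above 0 and no probe for Cd79a, Jchain or Ms4a1.

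Erythroid markers, the genes of red cells and their precursors, also differed in sum. The sum was 860.4, 1120.1 and 709.9 in NTA rats 1 to 3, against 640.4, 578.5 and 630.4 in vehicle rats 1 to 3, with 9 of 10 measured markers above 0 and Gata1 not above background. The globin genes Hba-a1 and Hbb carry most of that sum, with log2 NTA means of 9.10 and 8.36, against 1.62 for Alas2, the next brightest. Their differences were 0.54 and 0.47, while Rhag was at 0.06 and Klf1 at −0.02. The erythroid deviation medians were 0.15, 0.58 and 0.19 in NTA rats 1 to 3, against −0.34, −0.32 and −0.28 in vehicle rats 1 to 3. NTA rat 2 was the highest for both erythroid and mitosis genes. It was also the highest for B and plasma cell markers, at 0.81, and for stellate markers. Vehicle rat 1, which led the vehicle rats in mitosis genes, did not stand apart from the other vehicle rats in erythroid genes. It did lead the vehicle rats in granulocyte, Kupffer cell and stellate markers. The stellate deviation medians were −0.07, 0.44 and −0.07 in NTA rats 1 to 3, against 0.13, 0.03 and −0.05 in vehicle rats 1 to 3. The granulocyte deviation medians were 0.55, 0.12 and 1.21 in NTA rats 1 to 3, against 0.06, −1.29 and −0.67 in vehicle rats 1 to 3, and the Kupffer cell medians 0.13, −0.29 and 0.66 in NTA rats 1 to 3, against 0.26, −0.01 and −0.77 in vehicle rats 1 to 3. Granulocyte signal was 2.81 to 5.26 in NTA livers, against 1.62 to 2.69 in vehicle livers, with Elane not above background and no probe for Mpo. Of 7 granulocyte markers with a probe 3 were measured and 2 lay above 0, S100a9 at 1.37 and S100a8 at 1.21, while Camp was at −0.08. Of the Kupffer cell markers 10 of 10 lay above 0, with sums of 173 to 345 in NTA livers, against 114 to 263 in vehicle livers. Sums of the Kupffer cell, T and NK cell, stellate, biliary and megakaryocyte lists overlapped between the groups. The part of these cell types in the mitosis result was not tested.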

How the data were processed

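Liver RNA of 3 NTA rats and 3 vehicle rats was measured on one-colour arrays quantified with Agilent Feature Extraction, version 10.7.1.1 per the file headers (10.7 in the submitters' processing notes). The deposited scanner files give a background-subtracted intensity per spot on a linear scale (gProcessedSignal), beside medians of spot and background pixels and quality flags, per the file headers. The series table deposited by the authors is a linear ratio, equal to that intensity over the array's 75th percentile for 100% of its values (tolerance 0.0001 plus 0.2%), and its column medians were 0.096, 0.1 and 0.0969 for the NTA arrays and 0.098, 0.0977 and 0.0987 for the vehicle arrays.

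Values computed here were the log2 of the deposited intensity minus the log2 of the array's 75th percentile over non-control probes. That percentile lay between 464 and 558, and 1 to 14 probes per array with a non-uniformity flag were set to missing. Probes well above background throughout the NTA arrays, the vehicle arrays or both were kept. Names came from RefSeq accessions, which gave 1 symbol for 27460 probes and none for 34197. The brightest probe stood for a gene, leaving 11251 named genes and 19102 unnamed probes. The file headers name rn4 as the build, and the sequences shown are RefSeq's for GRCr8.

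Groups were compared by a moderated two-sided test in limma 3.58.1 under R 4.3.3 (lmFit, eBayes). Adjustment by Benjamini-Hochberg ran over 30353 features, with 4 residual and 2.54 prior degrees of freedom. The fit was tested on simulated data. An exact permutation test of 3 rats against 3 cannot go below 0.1. The genes and lists were chosen with earlier results of these data known. Values per rat are given for up to 4 genes per role with the smallest p and for each gene at an unadjusted p under 0.05; the remaining measured genes were added. Other lists are shown by up to 3 genes with the smallest p. Replicate numbers did not pair the samples: deviations of same-numbered rats correlated at 0.17, −0.0064 and −0.075.

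Alternatives were normexp (offset 50), median and quantile scaling, no filter or a filter on all 6 arrays, the mean or dimmest probe, trend and robust eBayes, slide, scan day and replicate number as blocks, the deposited series table and leaving out each rat. Combinations with the filter on all 6 arrays were added after seeing the data. The files used hold no mean spot signal, so normexp was run on the median spot signal.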

Additional observations from a re-analysis of the deposited data

How the results depend on the processing

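In all 22 alternatives 0 mitosis and G2 genes passed the adjusted threshold. Their lowest adjusted p in limma was 0.060 without vehicle rat 1 (Tpx2) and lay between 0.223 and 0.627 in the other alternatives. The Tpx2 probe passed the filter only through the NTA arrays, where a higher NTA signal follows from the filter. With probes limited to those on all 6 arrays, the lowest adjusted p in limma without vehicle rat 1 was 0.250. The 9 features called in all became 0 with the replicate block, with 1079 higher and 1242 lower at an unadjusted p under 0.05, and 16 of the mitosis genes at that p. They ranged from 2 to 10 when 1 rat was left out, lowest without NTA rat 1, and were 4 on all 6 arrays with the scan day as a block, without vehicle rat 1 or without vehicle rat 3. The 19 mitosis genes at an unadjusted p under 0.05 (3.66% of all features higher) became 10 with the scan day as a block (4.22%). They were 11 with that block on all 6 arrays and 11 without vehicle rat 3 on all 6 arrays (3.81% each). They ranged from 10 without vehicle rat 2 or 3 (3.18% and 4.10%) to 23 without vehicle rat 1 (4.11%), with 11 without NTA rat 2 (3.10%). The 15 genes without overlap (5.57% of all features) ranged from 15 to 24 when 1 rat was left out, highest without NTA rat 1 and without vehicle rat 1. The share of all features without overlap, higher with NTA, was then 9.03% to 11.4%. The genes without overlap were 14 on all 6 arrays (5.25%), 11 under normexp (5.13%) and 10 under normexp on all 6 arrays (5.31%). The median of the 31 genes ran from 0.63 to 1.08 when 1 rat was left out and was 0.33 under normexp, with or without the filter on all 6 arrays. Under normexp 1052 features were higher and 2215 lower at an unadjusted p under 0.05, against 1110 and 1188 in the values reported. The sign turned in Cenpa, Cks2, Foxm1 and Mybl2 under normexp, in Cks2 without NTA rat 2 or vehicle rat 1, and in Foxm1 with the scan day as a block or without NTA rat 2, vehicle rat 2 or vehicle rat 3. With the replicate block the median of the 31 genes stayed at 0.84 and 0 of them turned sign. The cause of these shifts was not tested. Aurkb, Cdca8, Cenpf, Hmmr and Kif2c were too dim for a difference.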
